A study of Mus musculus with 2 samples.

Results

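The cycling leukocytes of the colonic lamina propria were the cells with at least 1 unique molecular identifier (UMI, the tag that counts 1 captured transcript) of Mki67 and at least 1 of Top2a. They numbered 490 of 13923 kept cells. The library labelled WT gave 296 of 6005 cells and the library labelled Ring1aKO gave 194 of 7918. A barcode was kept as a cell with at least 1000 UMIs, at least 500 genes and less than 5% of UMIs from mitochondrial genes. Because the rule reads Mki67 and Top2a, the levels of these genes in the chosen cells are a description.

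The study asked what loss of Ring1a, an E3 ligase of polycomb repressive complex 1, changes in colitis caused by dextran sulfate sodium (DSS). Immune cells (CD45+) of the colonic lamina propria were taken from mice labelled C57BL/6 that all drank 2.5% DSS for 7 to 8 days. The methods name C57BL/6 J as the strain with which the knockout mice were crossed. Cells of 5 wild-type mice were pooled into the library labelled WT, and cells of 5 mice lacking Ring1a in the whole body into the library labelled Ring1aKO. The labels give an age of 8 to 10 weeks and the methods 8 to 12 weeks. The knockout is present in every cell of the mouse, the mice of a pool cannot be separated, and there was 1 library for each genotype, so what the genotype did and what the library did cannot be told apart, and nothing was tested between them. Ratios are given as log2 of the library labelled Ring1aKO over the library labelled WT, with 95% intervals that cover counting error only. The libraries held 74414511 and 81862096 UMIs over 32228 genes. They shared 11 kept barcodes, none of them in a cycling cell.

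Ring1, the gene of Ring1a (chromosome 17 of GRCm38, 34020792 to 34024680), was still counted in the library labelled Ring1aKO. In the cycling cells it had 96 UMIs in the library labelled WT, against 69 in the one labelled Ring1aKO, which is 12.9 and 12.5 CPM, the UMIs of a gene per 1000000 UMIs of the class, with a log2 ratio of -0.04 (-0.52 to 0.41). Over all kept cells its level was 13.4 and 11.8 CPM. The libraries count 3′ ends, and a 3′ tag does not show whether the transcript is disrupted upstream, so the genotype is taken from the labels.

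Cells that divide pass through a phase of DNA synthesis (S), a second gap phase (G2) and mitosis (M), and each is served by its own set of transcripts. E2F factors drive the S-phase genes, which build nucleotides and load and run the replication machinery, whereas genes of G2 and mitosis are held by complexes that read a short promoter element called the cell cycle homology region (CHR), often beside CCAAT boxes bound by NF-Y. In the gut lamina propria, division is known from germinal-centre B cells, plasmablasts, activated T cells and precursors of dendritic cells.

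The 150 bases upstream of the RefSeq start of 5 genes are shown because they place the rule genes beside a gene of each phase list used here. Mki67 encodes a protein that coats mitotic chromosomes, Top2a the topoisomerase that untangles sister chromatids, Pclaf a partner of the replication clamp PCNA, Cdk1 the kinase of mitotic entry and Mcm6 a subunit of the replicative helicase. They lie at chr7:135716380-135716529 (Mki67, minus strand), chr11:99024190-99024339 (Top2a, minus), chr9:65890173-65890322 (Pclaf, plus), chr10:69352913-69353062 (Cdk1, minus) and chr1:128359706-128359855 (Mcm6, minus) of GRCm38.p6. Capitals mark TTTGAA (the CHR), CCAAT and the E2F site TTTGGCGC, read on either strand, so that TTCAAA and ATTGG are the same elements reversed.
Mki67: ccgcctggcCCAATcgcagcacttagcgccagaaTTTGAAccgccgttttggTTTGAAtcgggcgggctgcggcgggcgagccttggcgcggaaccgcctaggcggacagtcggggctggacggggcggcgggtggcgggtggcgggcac
Top2a: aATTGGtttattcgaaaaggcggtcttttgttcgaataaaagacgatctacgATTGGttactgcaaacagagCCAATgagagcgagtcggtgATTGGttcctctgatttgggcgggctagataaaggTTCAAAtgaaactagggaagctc
Pclaf: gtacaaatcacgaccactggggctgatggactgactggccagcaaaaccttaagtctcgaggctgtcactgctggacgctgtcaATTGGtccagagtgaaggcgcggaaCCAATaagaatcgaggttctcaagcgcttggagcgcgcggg
Cdk1: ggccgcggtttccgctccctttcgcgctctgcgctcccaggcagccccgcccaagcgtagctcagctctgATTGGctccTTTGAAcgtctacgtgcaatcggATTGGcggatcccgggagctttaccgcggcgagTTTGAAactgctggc
Mcm6: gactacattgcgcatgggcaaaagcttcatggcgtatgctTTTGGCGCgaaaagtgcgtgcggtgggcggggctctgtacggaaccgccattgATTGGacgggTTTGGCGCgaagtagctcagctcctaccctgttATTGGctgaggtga

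Within the printed bases, Mki67 held TTTGAA at 116 and 98 bases before its start, and Cdk1 at 71 and 15 bases. Top2a held the reversed element 23 bases before its start. Pclaf held CCAAT boxes and no CHR letters in this window, and Mcm6 held the E2F letters at 110 and 47 bases. Over windows of 250 bases before to 50 after the start, TTTGAA was found in 31 of 45 genes of the G2/M list (68.9%), in 6 of 31 of the S-phase list (19.4%) and in 20.2% of 27025 genes with a RefSeq window. TTTCCCGC or TTTGGCGC was found in 2 of 45 G2/M genes (4.44%), in 10 of 31 S-phase genes (32.3%) and in 1.80% of all genes. CCAAT was frequent in both lists, in 75.6% and 71.0% against 41.1% of all genes. A match is a description of the letters and not of a bound site. The windows matched 45 of 52 and 31 of 43 list genes.

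The chosen cells carried the transcripts of division well beyond the 2 rule genes. The third marker, Pclaf, was not in the rule and had a UMI in 180 of 296 cycling cells (60.8%, 55.0% to 66.4%) of the library labelled WT, against 143 of 194 (73.7%, 66.9% to 79.8%) of the one labelled Ring1aKO. Thinned to 2000 UMIs the shares were 38.3% and 46.9%. Cells that passed with exactly 1 UMI of each rule gene numbered 48 and 30, and Pclaf was found in 10.4% and 10.0% of them. Cells with more than 1 UMI of either numbered 248 and 164, with Pclaf in 70.6% and 85.4%. Just outside the rule, 644 and 421 cells had Mki67 alone, with Pclaf in 5.59% and 3.56%, and 442 and 506 had Top2a alone, with Pclaf in 2.94% and 3.56%. With neither rule gene it was found in 0.80% and 0.868%. Cells that just met the rule thus stood closer in Pclaf to those outside it than to the rest of the cycling cells.

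Depth entered the rule. The cycling cells had a median of 20434 UMIs in the library labelled WT, against 24886.5 in the one labelled Ring1aKO. The other kept cells had medians of 6087 and 4958. The cycling cells held 12.0% and 8.02% of the UMIs of kept cells. Neutrophils, which do not divide and served as the background, met the rule in 2 of 208 cells (0.962%) and 1 of 237 (0.422%) at median depths of 4570.5 and 5331 UMIs. Barcodes with fewer than 100 UMIs, which hold free RNA, contained Mki67 at 45.5 and 30.1 CPM and Top2a at 34.3 and 24.5 CPM, in both cases more in the library labelled WT.

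Cycling cells made up 4.93% (4.40% to 5.51%) of the kept cells labelled WT, against 2.45% (2.12% to 2.81%) of the cells labelled Ring1aKO. The log2 ratio was -1.01 (-1.27 to -0.75). With every cell thinned to 2000 UMIs, which left out 154 cells labelled WT and 258 labelled Ring1aKO, the shares were 1.42% and 0.561%. The denominators differed in make-up, since cells that met only the B rule given next made up 17.7% of the kept cells labelled WT, against 41.4% of the cells labelled Ring1aKO. Among the cells that met neither the B nor the plasmablast rule, 3.93% (3.35% to 4.57%) and 3.34% (2.76% to 4.01%) were cycling, and the interval of the log2 ratio, -0.23 (-0.57 to 0.11), holds 0.

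Cells were assigned to lineages by Cd79a of at least 3 UMIs with Jchain under 1% of UMIs (B), Jchain at 1% or more (plasmablast), Cd3e of at least 1 (T), Lyz2 of at least 5 (myeloid) and Flt3 of at least 1 (dendritic). The plasmablast rule reads Jchain alone, so outside the cycling cells the name takes in plasma cells as well. Cells that met only the T rule were the largest class and numbered 92 (31.1%) in the library labelled WT, against 75 (38.7%) in the one labelled Ring1aKO. Plasmablasts numbered 39 and 16, B cells 23 and 16, dendritic cells 19 and 9, and myeloid cells 11 and 11. A further 22 and 10 met no rule. The share that met several rules was 30.4% and 29.4%, from 90 and 57 cells with medians of 31335.5 and 34444 UMIs. The pairs were led by B with dendritic (20 and 22 cells), plasmablast with myeloid (14 and 4), myeloid with dendritic (12 and 5), plasmablast with T (11 and 5) and plasmablast with dendritic (8 and 8). No doublet caller was run, and whether these cells are doublets, carry free RNA or express both genes was not tested. Free RNA held Jchain at 18180.0 and 14894 CPM and Lyz2 at 1487 and 499.8 CPM.

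The cycling share was also read within each lineage. In B cells it was 2.17% (1.38% to 3.24%, 23 of 1061) and 0.488% (0.279% to 0.792%, 16 of 3276), which gave a log2 ratio of -2.15 (-3.07 to -1.23). Thinned to 2000 UMIs, 4 of 1056 and 8 of 3247 cells remained in the class, and the log2 ratio of -0.62 had an interval of -2.35 to 1.11. In alternatives chosen after the data were seen, the B ratio was -1.25 (-2.42 to -0.07) at 5000 UMIs, and -2.03 (-3.06 to -0.99) at 2000 UMIs with every rule met counted. Plasmablasts met the rule at 7.69% (5.53% to 10.4%) and 3.16% (1.82% to 5.08%), which gave a log2 ratio of -1.28 (-2.10 to -0.46). After thinning to that depth, 6 of 503 and 3 of 467 plasmablasts met the rule, and the log2 ratio was -0.89 with an interval of -2.88 to 1.10 that holds 0. Thinned to 5000 UMIs, chosen after the data were seen, it was -1.39 (-2.83 to 0.04). The plasmablasts that met the rule had a lower quartile of 203 and 241 CPM for the S-phase list and 529 and 551 CPM for the G2/M list, where the other plasmablasts had medians of 217 and 167 CPM and of 479 and 376 CPM. T cells met the rule at 6.06% (4.91% to 7.38%) and 4.66% (3.68% to 5.80%), and the interval of their log2 ratio, -0.38 (-0.81 to 0.05), held 0. Thinned to 2000 UMIs the T-cell shares were 2.38% and 1.19%, a log2 ratio of -0.996 (-1.79 to -0.20) whose interval did not. The interval also lay below 0 with at most 5000 genes per cell, at -0.63 (-1.10 to -0.16), and with every rule met counted, chosen after the data were seen, at -0.58 (-0.96 to -0.20). Dendritic cells met it at 10.7% (6.55% to 16.2%) and 5.96% (2.76% to 11.01%), with intervals that overlap those of plasmablasts and of T cells. Their log2 ratio was -0.84 (-1.94 to 0.26). The interval lay below 0 with stricter lineage limits (Flt3 of at least 2), at -1.09 (-2.18 to -0.0002). It also did with every rule met counted, chosen after the data were seen, at -1.04 (-1.54 to -0.55), which adds cells that also met the B rule. The dendritic shares thinned to 2000 UMIs were 2.86% and 0.676%. Myeloid cells met the rule at 1.08% (0.538% to 1.92%) and 2.30% (1.15% to 4.08%), with a log2 ratio of 1.10 (-0.10 to 2.29) from 11 cells each. None of the 11 labelled WT had a UMI of Pclaf, and their S-phase and G2/M levels, given at the end, were not above those of the other myeloid cells. This ratio turned to -0.24 (-0.90 to 0.42) when cells that met several rules were counted under each.

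The choice of marker genes moved the result. With Pclaf and Birc5, the mitotic protein survivin, in place of Mki67 and Top2a, the share over all kept cells was 2.88% (2.47% to 3.34%, 173 cells) and 1.84% (1.56% to 2.16%, 146 cells), a log2 ratio of -0.64 (-0.96 to -0.33). In T cells it was 3.95% (60 of 1519) and 3.98% (64 of 1610), a log2 ratio of 0.01 (-0.49 to 0.51). In plasmablasts it was 4.14% and 1.38%, a log2 ratio of -1.58 (-2.80 to -0.36), and in B cells 1.04% and 0.488%, a log2 ratio of -1.09 (-2.19 to 0.02). Among cells that met exactly 1 rule, as deposited, the plasmablast interval lay below 0 under both pairs of genes and the T-cell interval held 0 under both, and neither statement held after thinning to 2000 UMIs with Mki67 and Top2a. This pair of genes was chosen after the data were seen.

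**Figure D1:**
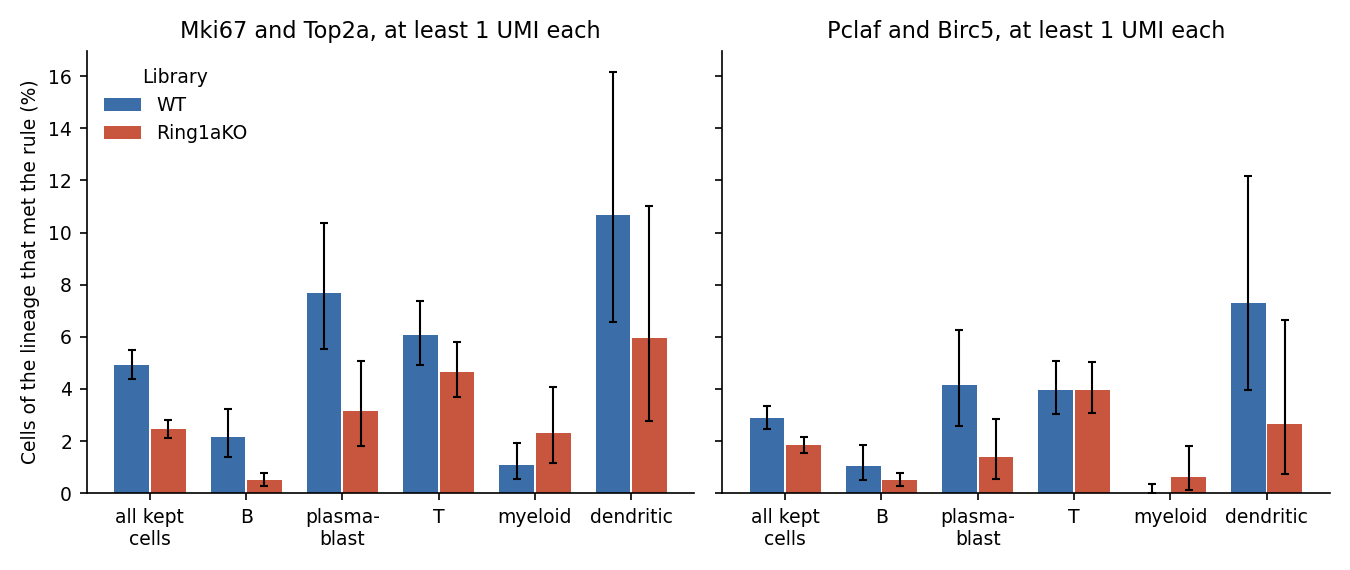
Share of kept cells, in percent, that met the Mki67 and Top2a rule (left) or had Pclaf and Birc5 in their place (right), over all kept cells and within each lineage that met exactly 1 rule. Bars are the libraries labelled WT and Ring1aKO and error bars are exact 95% Clopper-Pearson intervals; T cells stood at 6.06% and 4.66% on the left and at 3.95% and 3.98% on the right.

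Levels were also summed over all cells that met only the T rule, with no cell selected for division. Mki67 was at 101 CPM in the library labelled WT, against 56.4 CPM in the one labelled Ring1aKO (log2 ratio -0.84) and Top2a at 101 and 76.9 CPM (-0.39). Pclaf was at 82.3 and 94.5 CPM (0.20) and Birc5 at 36.4 and 44.8 CPM (0.30). The S-phase list and the G2/M list had log2 ratios of 0.04 and -0.06. With every rule met counted, the ratios in T cells were -1.15 for Mki67, -0.63 for Top2a, 0.01 for Pclaf, 0.00 for Birc5, -0.09 for the S-phase list and -0.19 for the G2/M list, so the sign of the S-phase list turned. In cells that met only the B rule the 4 genes lay lower in the library labelled Ring1aKO, with log2 ratios of -2.43 for Mki67, -1.60 for Top2a, -1.52 for Pclaf and -1.18 for Birc5. In plasmablasts that met only their rule they were -1.79, -1.76, -1.08 and -1.15, and with every rule met counted -1.52, -1.04, -0.67 and -0.30.

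Transcript length moved with these ratios. Mki67 has 10061 bases in its longest transcript and Top2a 5221, whereas Pclaf has 2188 and Birc5 3334. Over the genes compared in the cycling cells, the median log2 ratio was 0.06 for transcripts up to 1 kb, 0.15 for 1 to 2 kb, -0.06 for 2 to 4 kb, -0.30 for 4 to 8 kb and -0.49 over 8 kb. The other kept cells had -0.10, 0.03, -0.11, -0.28 and -0.39, so the slope was not limited to dividing cells. Across 9686 genes of the cycling cells Spearman's rho between length and ratio was -0.39, where genes share libraries and are not independent. With the median of their own class subtracted, the log2 ratio was -0.35 for Mki67, -0.27 for Top2a and 0.38 for Pclaf. The part of length in the share of cycling cells was not tested.

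**Figure D2:**
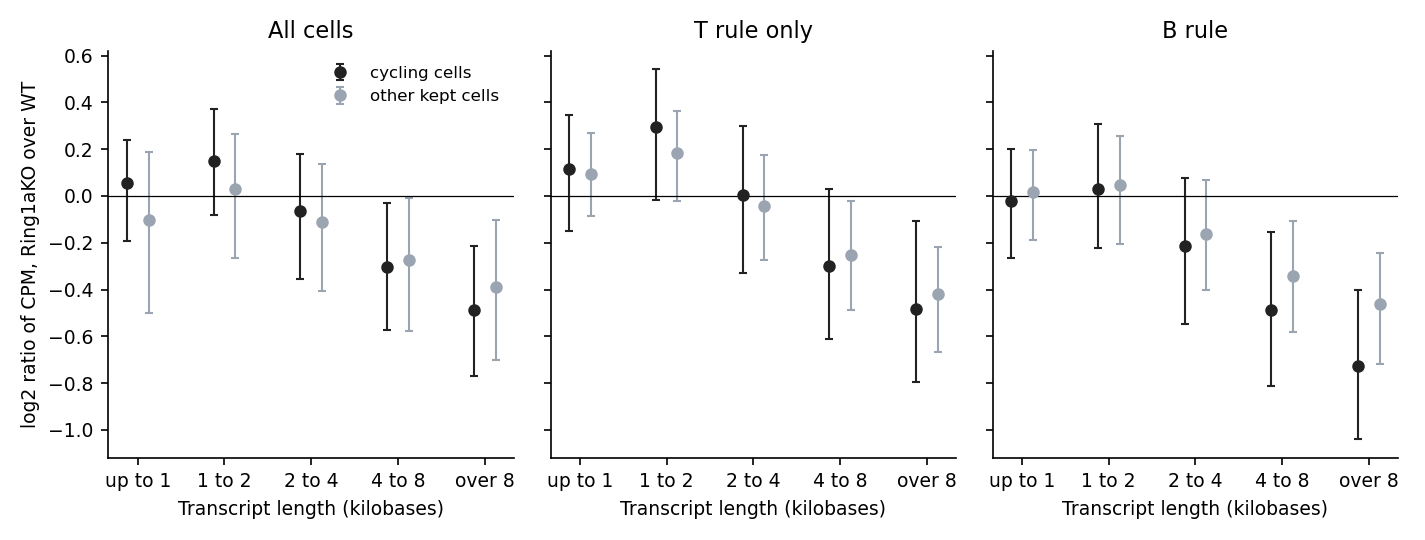
Median log2 ratio of CPM, Ring1aKO over WT, against transcript length in kilobases for the cycling cells (black) and the other kept cells (grey), over all cells, cells that met only the T rule and cells that met the B rule. Error bars span the quartiles over genes; in cycling T cells the medians run from 0.11 up to 1 kb to -0.48 over 8 kb.

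Among the genes of the cell cycle, the S-phase list had a median log2 ratio above 0 and the G2/M list one below 0. Of 9693 genes with at least 50 UMIs, 1.22% lay higher and 5.16% lower by a fold of at least 2, and the median log2 ratio was -0.09. Of 43 S-phase genes, 31 had a ratio above 0, 1 was higher by a fold of 2 and none lower, and the median was 0.32. The summed list was at 2404 CPM in the library labelled WT, against 2874 CPM in the one labelled Ring1aKO. Of 52 G2/M genes, 14 had a ratio above 0, none was higher by a fold of 2 and 2 were lower, and the median was -0.19. With the median of each gene's length class subtracted, the medians were 0.29 and -0.17. Without that step, the S-phase and G2/M medians differed by lineage. They were 0.34 and -0.13 in cells of the T rule only, -0.09 and -0.42 in cells of the B rule, and 0.03 and 0.08 in cells of the plasmablast rule.

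Tyms and Rrm2, of deoxynucleotide synthesis, were among the genes of S phase with the higher ratios. Tyms, thymidylate synthase, was at 48.5 CPM in the cycling cells labelled WT and 106 CPM in the cells labelled Ring1aKO, which is a log2 ratio of 1.13 (0.94 to 1.32). Rrm2, the regulated subunit of ribonucleotide reductase, was at 94.7 and 181 CPM, a log2 ratio of 0.93 (0.79 to 1.07). Its partner Rrm1 went the other way, at 106 and 91.6 CPM (-0.21). Tk1 (43.7 and 69.2 CPM) and Dut (218 and 316 CPM), which feed or guard the thymidine pool, were both higher in the library labelled Ring1aKO. Over the 18 genes of nucleotide synthesis the median was 0.25, with 1 higher by a fold of 2, which was Tyms, and none lower.

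Among genes that load and move the replication fork, the helicase subunit Mcm5 was at 84.8 and 137 CPM, a log2 ratio of 0.69 (0.53 to 0.84), and Mcm6 at 109 and 148 CPM (0.44). Pcna, the sliding clamp, was at 249 and 314 CPM (0.33). Pclaf was at 386 and 479 CPM (0.31). Below 0 were the long genes Pola1, the catalytic subunit of the primase polymerase (41.2 and 23.5 CPM, -0.81), and Blm, a helicase of stalled forks (26.9 and 14.3 CPM, -0.90).

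Genes of the G2/M list lay on both sides. The kinetochore and spindle genes Cenpe (88.0 and 35.2 CPM, -1.32), Dlgap5 (33.3 and 16.3 CPM, -1.03) and Cenpf (113 and 56.9 CPM, -0.99) were lower in the library labelled Ring1aKO, and Cenpe and Cenpf have long transcripts, of 7910 and 11130 bases. Cdk1 was at 61.0 and 96.2 CPM, a log2 ratio of 0.66 (0.47 to 0.84), and Cdca3, which helps degrade a mitotic inhibitor, at 103 and 137 CPM (0.40). Hmgb2, the most abundant gene of the list, was at 1782 and 1719 CPM (-0.05). The rule genes themselves stood at 496 and 278 CPM for Mki67 and at 389 and 261 CPM for Top2a, and these values describe cells chosen by them.

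Of 12 cyclins and their kinases, 11 had a ratio above 0. Ccne1, the cyclin of S-phase entry, was at 21.2 and 34.7 CPM (0.71), Cdk2, its kinase, at 20.7 and 34.9 CPM (0.75), and Ccna2 at 80.5 and 112 CPM (0.48). Ccnd1, a D-type cyclin, was the 1 gene below 0, and it was lower by a fold of 2, at 42.1 and 15.3 CPM (-1.44, -1.82 to -1.10). Among the 9 inhibitors and pocket proteins compared, Cdkn1b, an inhibitor of cyclin E and Cdk2, was lower by a fold of 2 at 118 and 54.5 CPM (-1.11, -1.30 to -0.92), and none was higher. In the other kept cells it stood at 139.9 and 78.3 CPM. Of 17 interferon-response genes 3 were lower by a fold of 2, which were Isg15, Gbp2 and Gbp5, and 1 had a ratio above 0. Of all genes compared, 5.16% were lower and 1.22% higher by a fold of 2.

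Each cell can be placed by its summed S-phase and G2/M levels, from lists that hold neither Mki67 nor Top2a. The median cycling cell had an S-phase level of 1631 CPM in the library labelled WT, against 2559 CPM in the one labelled Ring1aKO, and a G2/M level of 3978 and 4859 CPM. With every rule met counted, the S-phase level was 2210 and 3809 CPM in T cells and 3366 and 3505 CPM in B cells. It was 840 and 784 CPM in plasmablasts, 2380 and 2152 CPM in dendritic cells and 646 and 586 CPM in myeloid cells. The lineages thus did not share the pooled rise. Plasmablast-rule cells made up 27.0% and 18.0% of the cycling cells, and the part of lineage mix was not tested. Over all cycling cells, those with more S-phase than G2/M UMIs numbered 51 (17.2%, 13.1% to 22.0%) and 39 (20.1%, 14.7% to 26.4%). In T cells they numbered 15 of 92 (16.3%, 9.42% to 25.5%) and 19 of 75 (25.3%, 16.0% to 36.7%). These intervals overlap widely, so the mix of phases was not separable at this number of cells.

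**Figure D3:**
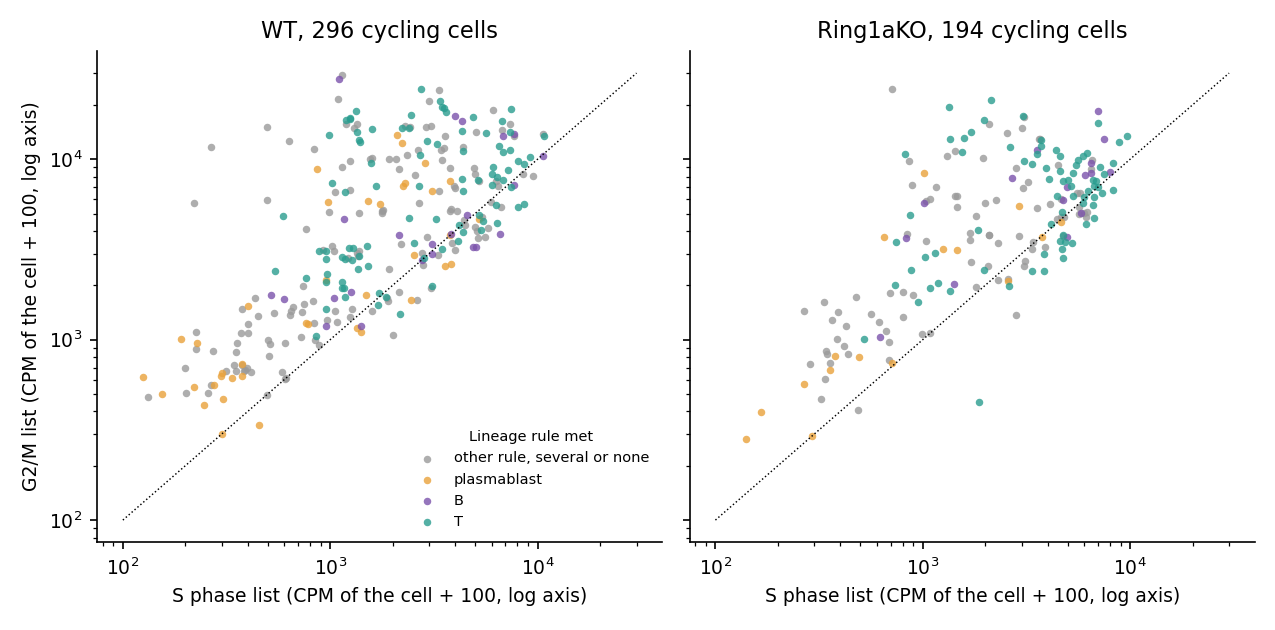
S-phase list level (x axis) against G2/M list level (y axis) of each cycling cell, in CPM of the cell plus 100 on log axes, for the 296 cells labelled WT and the 194 labelled Ring1aKO. Colours give the lineage rule met and the dotted line marks equal levels; 51 and 39 cells had more S-phase than G2/M UMIs.

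Compared with the other kept cells, 8.53% of the 9693 genes were higher by a fold of 2 in both libraries and 1.62% lower. The cells were chosen on Mki67 and Top2a, so these values describe the class. Higher in both were 40 of 43 S-phase genes, 47 of 52 G2/M genes, 15 of 18 genes of nucleotide synthesis and all 20 genes of the chromatin of dividing cells. None of the 10 p53 targets compared and 3 of the 15 genes of ribosome biogenesis were. Of 21 polycomb genes 1 was, Ezh2, the methyltransferase of polycomb repressive complex 2, at 118 and 106 CPM in the cycling cells and 22.8 and 18.4 CPM in the other kept cells. Rnf2, the paralogue of Ring1, was at 18.8 and 19.1 CPM in the cycling cells.

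Histone transcripts were a further group with many members lower in the library labelled Ring1aKO. Of 46 histone genes compared in all cycling cells, 15 (32.6%) were lower by a fold of 2 and none higher, against the background of 5.16% lower, and the median log2 ratio was -0.49. The summed level was 3708 CPM in the library labelled WT, against 2569 CPM in the one labelled Ring1aKO, and 659.9 and 466 CPM in the other kept cells. H1f4, a linker histone, was at 448 and 72.2 CPM, a log2 ratio of -2.63 (-2.79 to -2.48). H1f5 was at 442 and 81.8 CPM (-2.43) and the core histones H3c3 at 218 and 46.2 CPM (-2.23) and H2ac8 at 467 and 146 CPM (-1.68). H2ac24 was the reverse, at 739 and 1264 CPM (0.77). H1f4 was lower in the other kept cells as well, at 106 and 26.6 CPM. The replication-independent variant H2az1 was at 1499.9 and 2012 CPM in the cycling cells (0.42). The genes were collected by symbol after their values were seen, and histone copies share sequence, so their counts can be split between members. Most of these transcripts end in a stem-loop in place of the poly(A) tail that the kit captures, and the part of capture was not tested.

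In cells that met only the T rule, Foxp3, Il2ra, Ctla4 and Il10 were higher in the cycling cells labelled Ring1aKO, at a ratio near or below 0 in the other T cells. They were picked after their values were seen, and Ikzf2 lay the other way. Of 6097 genes compared, 2.43% were higher and 6.17% lower by a fold of 2. Foxp3, the regulator that defines regulatory T cells, had a UMI in 15 of 92 cycling T cells labelled WT (16.3%, 9.42% to 25.5%) and in 33 of 75 labelled Ring1aKO (44.0%, 32.5% to 55.9%). The summed level was 57.2 and 123 CPM, a log2 ratio of 1.09 (0.73 to 1.48). In the other T cells Foxp3 was at 72.9 and 68.8 CPM (-0.08) and in 13.6% and 12.2% of cells. The median depths of the cycling T cells were 13458.5 and 17709 UMIs. At 2000 UMIs per cell, in a random draw, Foxp3 was found in 10.9% and 10.7% of them, so the shares of cells lay close in this draw. Few cells kept a UMI of Foxp3 there, no interval is given, and the part of depth was not tested.

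Il2ra, the high-affinity chain of the interleukin-2 receptor, was at 114 and 285 CPM (1.31, 1.06 to 1.58) and had -0.37 in the other T cells. Ctla4, an inhibitory receptor, was at 831 and 1724 CPM (1.05, 0.96 to 1.15) and 0.02 in the other T cells. Il10, an anti-inflammatory cytokine, was at 70.0 and 272 CPM (1.95, 1.65 to 2.28) and -0.03 in the other T cells, with a UMI in 15 and 29 cells. Ikzf2, which encodes Helios, was the reverse at 355 and 237 CPM (-0.58). Among the T-subset and effector genes 18 were compared, of which 3 were higher by a fold of 2 and 5 lower, against 2.43% and 6.17% of all 6097 genes.

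The highest ratios among genes with at least 100 CPM in a library belonged to Gm42031, an unnamed locus (4.71 and 188 CPM, 5.13), Lag3, an inhibitory receptor (26.2 and 113 CPM, 2.08), Ccr7, which guides cells to lymph nodes (48.5 and 191 CPM, 1.96), and Il10. Next were Izumo1r, a folate-receptor relative found on regulatory T cells (28.3 and 111 CPM, 1.94), Fabp5, a fatty-acid carrier (118 and 449 CPM, 1.92), Capg, an actin capping protein (119 and 442 CPM, 1.88), and Ckb, a creatine kinase (30.3 and 106 CPM, 1.79). Gm42031 was as different in the other T cells (6.05), whereas Lag3 had 0.70, Ccr7 0.49, Izumo1r 0.63 and Fabp5 0.78 there.

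Ifng, Il17a and Il22 lay lower in the library labelled Ring1aKO, and their ratios in the other T cells were 0.04, -0.54 and -0.99. Ifng, interferon gamma, was at 535 and 87.6 CPM (-2.60, -2.88 to -2.35), with a UMI in 33 and 21 cells, and the fullest cell held 32.7% and 40.0% of its UMIs. Il17a was at 220 and 85.7 CPM (-1.35) from 19 and 7 cells, and 1 cell held 60.6% of the UMIs in the library labelled Ring1aKO. Il22 was at 359 and 143 CPM (-1.33), with 62.7% in 1 cell. Gzmb, a granule protease of cytotoxic cells, was at 811 and 1032 CPM (0.35) in 52 and 53 cells. Tcf7, a factor of naive and memory-like cells, was at 107 and 40.7 CPM (-1.38, -1.84 to -0.97), and Il7r at 253 and 123 CPM (-1.03). Cd8a was at 232 and 121 CPM (-0.94) in the cycling T cells and 0.45 in the others.

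**Figure D4:**
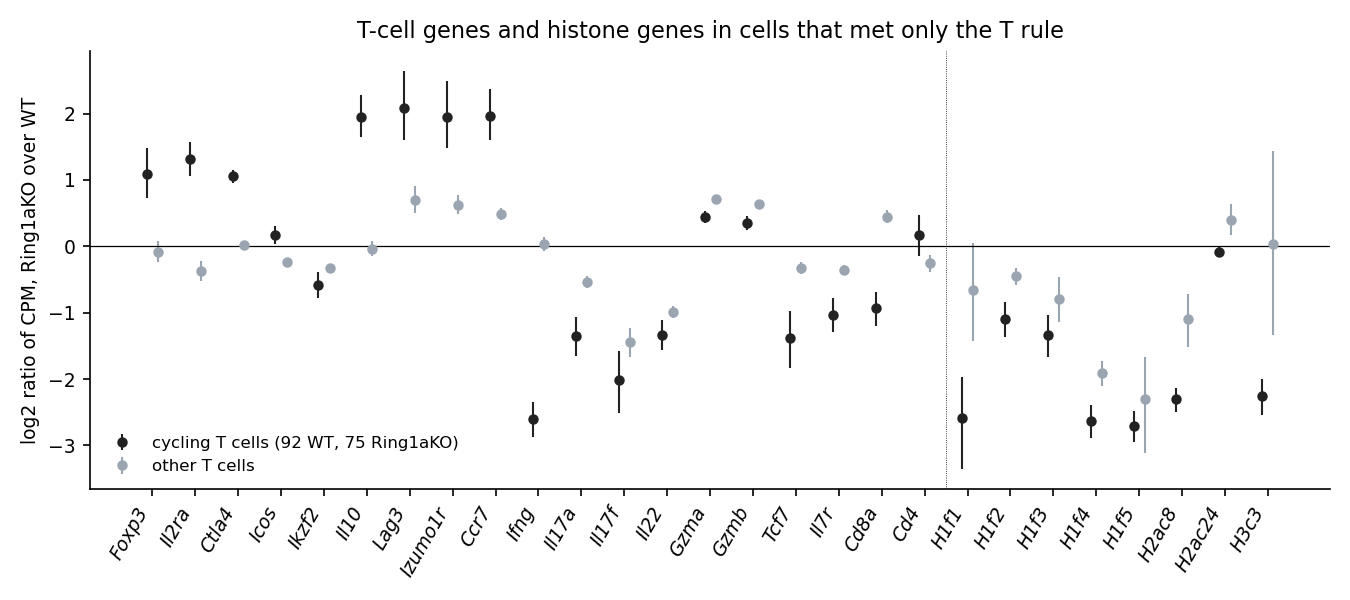
Log2 ratio of CPM, Ring1aKO over WT, of T-cell genes (left of the dotted line) and histone genes (right) in the 92 and 75 cycling T cells (black) and the other T cells (grey), with exact 95% intervals of the counts. Foxp3 stands at 1.09 against -0.08, Il10 at 1.95 against -0.03 and H1f4 at -2.63 against -1.91.

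The cycling T cells were also sorted by Cd4, Cd8a and Foxp3 as deposited. Cells with Cd4 and neither Foxp3 nor Cd8a numbered 34 (37.0%, 27.1% to 47.7%) and 13 (17.3%, 9.57% to 27.8%), and cells with Cd8a and neither Cd4 nor Foxp3 35 (38.0%, 28.1% to 48.8%) and 20 (26.7%, 17.1% to 38.1%). Read within each subset, 7.18% (4.07% to 11.6%) and 14.9% (10.5% to 20.3%) of Foxp3 cells were cycling, a log2 ratio of 1.06 (0.22 to 1.89). Of Cd4 cells with neither Foxp3 nor Cd8a, 8.5% (5.96% to 11.7%) and 3.88% (2.08% to 6.54%) were cycling (-1.13, -2.03 to -0.23), and of Cd8a cells with neither Cd4 nor Foxp3 7.42% (5.22% to 10.2%) and 3.56% (2.19% to 5.44%) (-1.06, -1.83 to -0.29). These subsets were read at unequal depth, and at 2000 UMIs per cell the share of cycling T cells with Foxp3 was 10.9% and 10.7%, as given above. Trdc without the other genes was found in 0 of 92 cycling T cells, which allows a share of cells with a UMI of up to 3.26% (3 counts of the total), and in 2 of 75.

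The lowest ratios among cycling T cells came from a few cells with markers of other types. The genes Mcpt2, Mcpt1 and Mcpt8 of mast cells and basophils and Zg16, Spink4, Gpx2, Muc2 and Cldn7 of epithelium were counted in 1 to 6 cells labelled WT. The mast and basophil list had 4902 UMIs in the cycling T cells labelled WT, of which 1 cell held 66.4% and 2 cells 90%, and 6 UMIs in those labelled Ring1aKO. The epithelial list had 533 and 59 UMIs, with 79.4% of the first in 1 cell. Among genes whose fullest cell held at most 25% of the UMIs in the library where they were higher, the lowest ratios belonged to H2ac22 (-3.35), H1f5 (-2.70), H1f4 (-2.63), H2ac8 (-2.30), Il1rl1 (-2.29), H3c3 (-2.26), Il17f (-2.02) and H2ac20 (-2.01), of which 6 are histones.

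The S-phase list had a median log2 ratio of 0.34 in cycling T cells. Of 40 compared, 26 had a ratio above 0, and Gins2, a helicase partner (33.7 and 74.4 CPM, 1.13), and Chaf1b, a histone chaperone (19.5 and 41.3 CPM, 1.05), were higher by a fold of 2, while Blm was lower (39.7 and 16.9 CPM, -1.21). Of 18 genes of nucleotide synthesis 17 had a ratio above 0, with a median of 0.46. Of 47 G2/M genes 17 did, with a median of -0.13. Of 5 class II genes of antigen presentation 3 were higher by a fold of 2, with H2-Aa at 43.1 and 133 CPM (1.61) and Cd74 at 127 and 255 CPM (1.00). Of all 6097 genes compared in these cells, 2.43% were higher and 6.17% lower by a fold of 2. The B-lineage list, of cells that also carry class II, stood at 123 and 186 CPM in the same cells, Cd79a was found in 7.61% and 32.0% of them (0% and 4% at 2000 UMIs per cell), and its part was not tested.

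Cycling cells that met the B rule, alone or with others, were 57 in the library labelled WT, against 46 in the one labelled Ring1aKO, and 9 of 15 germinal-centre genes were higher by a fold of 2 in them than in the other B cells of both libraries, where 14.1% of 5601 genes were higher and 4.41% lower. The cells were chosen on Mki67 and Top2a, so this describes the class. Cxcr4, Cd83 and Cd86 of that list were lower in both. Rgs13, a signalling brake of germinal-centre B cells, had a UMI in 49.1% (35.6% to 62.7%) and 39.1% (25.1% to 54.6%) of them, against 2.07% and 0.692% of the other B cells. At 2000 UMIs per cell it was found in 29.8% and 15.2%, against 0.866% and 0.268%. Gcsam was found in 35.1% and 34.8% against 1.21% and 0.319%. Mef2b, an activator of Bcl6, was found in 52.6% and 67.4% against 4.05% and 3.78%, and at 2000 UMIs per cell in 14.04% and 17.4% against 1.99% and 1.26%. Ighd, the constant gene of naive B cells, went the other way at 19.3% and 37.0% against 83.7% and 86.7%. Median depths were 18927 and 25984.5 UMIs in the cycling and 4309.5 and 4421.5 in the other B cells.

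Between the libraries, Mybl1 and Bcl6 had the lowest ratios of these genes. Mybl1, a MYB-family factor of centroblasts, had 130 CPM in the library labelled WT, against 33.8 CPM in the one labelled Ring1aKO, a log2 ratio of -1.92 (-2.45 to -1.46), with a UMI in 34 of 57 and 19 of 46 cells. Its ratio in the other B cells was -2.84, from 11.5 and 1.58 CPM. Bcl6, the repressor that sets the germinal-centre program, was at 66.4 and 19.98 CPM (-1.69, -2.42 to -1.09). Mef2b was at 93.4 and 92.2 CPM (-0.02). Mybl1 and Bcl6 were the 2 of 15 germinal-centre genes lower by a fold of 2, a share near the 8.89% of 5601 genes that were lower, and 1.55% were higher. Among the cells that met only the B rule, Mybl1 was at 144 and 60.2 CPM (-1.22, -1.97 to -0.58) and Bcl6 at 32.1 and 25.5 CPM (-0.30, -1.60 to 0.88). The monocyte and macrophage list, led by Apoe, stood at 1825 and 1168 CPM in all cells of the B rule, with 6 of 9 genes lower by a fold of 2, and its part in the Bcl6 difference was not tested.

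Flt3, the receptor used here for dendritic cells, was found in 43.9% and 52.2% of the cycling cells of the B rule, against 4.66% and 7.82% of the other B cells. Thinned to 2000 UMIs it was found in 5.26% and 10.9% against 1.47% and 3.35%. The 20 and 22 cycling cells that met the B and dendritic rules and no other had no UMI of Xcr1, Clec9a or Siglech, which mark dendritic subsets, and Zbtb46 was found in 0 and 1 of them. Rgs13 was found in 12 of 20 and 8 of 22, and Ms4a1, which encodes CD20, in 18 and 18. At this depth Xcr1 was not detectable in these cells, which allows shares of cells with a UMI of up to 15% and 13.6% (3 counts of the total).

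**Figure D5:**
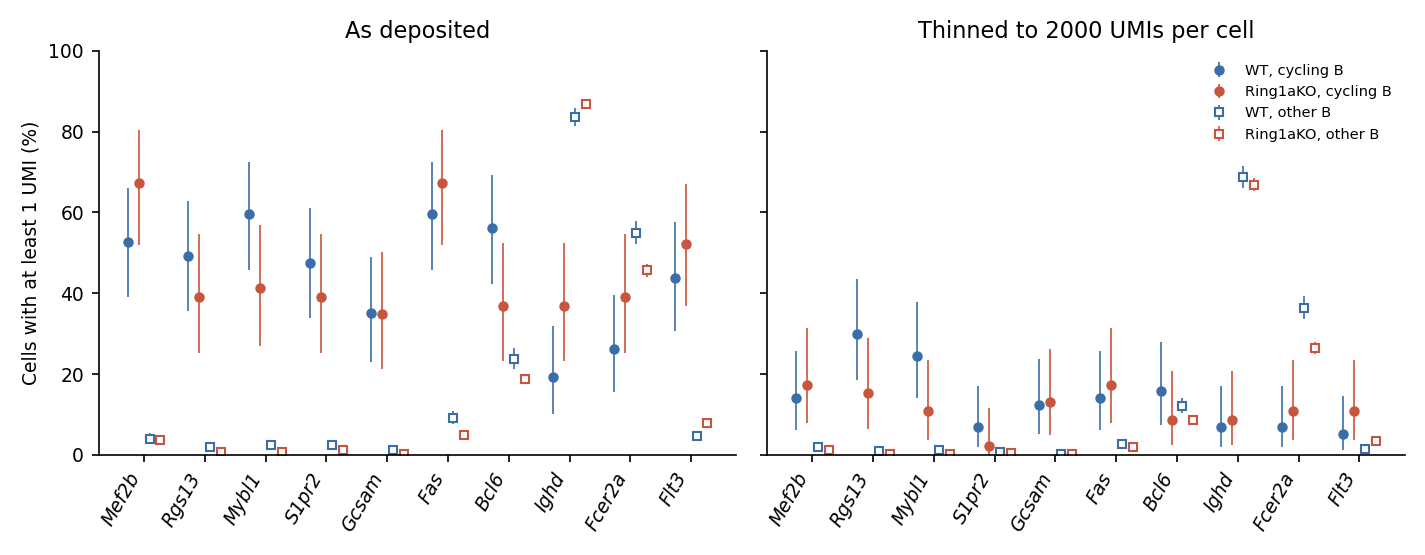
Percent of B-rule cells with at least 1 UMI of germinal-centre genes, of Ighd, Fcer2a and Flt3, as deposited (left) and thinned to 2000 UMIs per cell (right), with exact 95% Clopper-Pearson intervals. Filled circles are cycling and open squares other B cells of each library; Rgs13 stands at 49.1% and 39.1% against 2.07% and 0.692% on the left.

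The highest ratios in the cycling cells of the B rule fell partly on genes held by few cells, such as Slpi, whose fullest cell held 57.4% of its UMIs in the library labelled Ring1aKO. Among genes whose fullest cell held at most 25% in the library where they were higher, the 8 highest ratios began with the unnamed locus Gm42031 (27.7 and 204 CPM, 2.85). Fkbp11, a prolyl isomerase of secretory cells, was at 32.1 and 198 CPM (2.60), with a UMI in only 6 of 57 and 10 of 46 cells. Its fullest cell held 45.5% and 24.4% of the UMIs. The unnamed Gm43305 was at 115 and 465 CPM (2.01), and Prdx4, a peroxiredoxin of the endoplasmic reticulum, at 59.1 and 211 CPM (1.82). H13, a signal peptide peptidase, was at 86.8 and 304 CPM (1.80), Edem2, which tags misfolded glycoproteins, at 43.8 and 130 CPM (1.55), Cnpy2 at 35.7 and 104.5 CPM (1.53), and Creld2, a stress-induced chaperone, at 116 and 336 CPM (1.53). In the other B cells the ratios of these 8 genes, in the same order, were 2.02, 1.76, 2.02, 0.60, 0.03, 0.44, -0.16 and 0.28. The plasma list had 6 of 13 genes higher by a fold of 2 and 1 lower in the same cells, where 1.55% of 5601 genes were higher and 8.89% lower. It had a summed 16076 and 51621 UMIs, with Igha and Ighg1 as its most abundant genes, and its part was not tested. Ighg1 was the leading constant gene in 3 and 7 of these cells. Under the same 25% limit, which set aside lower ratios such as those of S100a8 and S100a9, the lowest ratio was that of Gbp2, an interferon-induced GTPase (127 and 9.22 CPM, -3.68), which had -3.18 in the other B cells. Then came H1f4 (-2.80), C130026I21Rik (-2.60), H3c3 (-2.49), Ifi203 (-2.09), Ifrd1 (-2.08) and Cebpb (-1.93). The S-phase list had a median of -0.09 and the G2/M list of -0.42, with 7 of 44 G2/M genes lower by a fold of 2, against 8.89% of all genes compared. Their length-adjusted medians were 0.16 and -0.21.

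Cycling plasmablasts, 80 and 35 cells that met the plasmablast rule alone or with others, had Igha, of IgA, as the leading constant gene for the most part. It was the leading constant gene in 75 of 80 (93.8%) and 29 of 35 (82.9%), against 95.8% and 94.7% of the other plasmablasts. Ighg1 led in 0 and 3 cells and Ighm in 1 and 3. Free RNA held Igha at 69469 and 58438 CPM and Jchain above the 1% of the rule, and Igha also led in 54.7% and 66.7% of the other B cells. The part of free RNA in these shares was not tested. Xbp1, the regulator of the secretory program, was found in all 80 and 35 cells and Sdc1, which encodes CD138, in 92.5% and 94.3%. The B-lineage list stood at 1634 and 7738 CPM, with 5 of 7 genes higher by a fold of 2 and Ighm as the most abundant. Ratios above that of Slpi were those of S100a9 (3.01), S100a8 (2.75), C1qa (2.41), Apoe (2.40), C1qb (2.12) and Ccr7 (1.93), among them genes of neutrophils and macrophages, and their fullest cell held 34.7% to 54.4% of the UMIs in the library labelled Ring1aKO. In the other plasmablasts their ratios, in the same order, were 2.84, 2.91, 0.62, 1.24, 0.35 and 1.45. The S100a8 and S100a9 differences were thus not limited to the cycling cells. Below the 25% limit, Slpi, a protease inhibitor of mucosa, was at 645 and 2389.8 CPM (1.89, 1.81 to 1.97) and 0.56 in the other plasmablasts. Plac8 was at 479 and 41.3 CPM (-3.52, -3.90 to -3.19) and -1.97 in the others. H3c3 (-3.04), H1f4 (-2.85) and H1f5 (-2.60) followed in order. Of 5764 genes 1.27% were higher and 6.96% lower by a fold of 2. Of 15 interferon-response genes 7 were lower and none higher, with a median of -0.62. Ube2c, which drives the destruction of mitotic cyclins, was at 110 and 205 CPM (0.90).

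Cycling dendritic cells that met the dendritic rule alone numbered 19 and 9. Itgax, which encodes CD11c, was found in 18 and 8, Xcr1 of type 1 cells in 7 and 2, Clec9a in 8 and 4, Cd209a of type 2 cells in 3 and 3, and Siglech of plasmacytoid cells in 3 and 0. Xcr1 was at 109 and 64.5 CPM (-0.70, -1.67 to 0.06). Ccr7, which marks mature migratory cells, was at 290 and 1426 CPM (2.29, 2.01 to 2.58) and was found in 8 of 19 and 6 of 9 cells. Ccnd1 was at 219 and 80.6 CPM (-1.38, -2.21 to -0.75), and these cells held 110 of the 313 and 20 of the 85 Ccnd1 UMIs of all cycling cells. The interval of Xcr1 held 0 at these numbers of cells, and that of Ccr7 covers counting error of UMIs only. In the wider class of 70 and 49 cycling cells that met the dendritic rule alone or with others, Ccr7 was at 108 and 415 CPM (1.94). The fullest cell of that class held 33.5% and 31.3% of its UMIs, and these shares are not those of the 19 and 9 cells. The other cells of the dendritic rule had Ccr7 at 408 and 705 CPM (0.79).

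Cycling myeloid cells, 11 in each library, had Csf1r, the receptor of monocytes and macrophages, in all 11 and 11. C1qa, a complement gene of resident macrophages, was found in 3 and 8, at 385 and 1527 CPM (1.96, 1.51 to 2.49). Ly6c2, of inflammatory monocytes, was found in 8 and 3, at 1243 and 209 CPM (-2.53, -3.24 to -1.96). The intervals of C1qa and Ly6c2 cover counting error of UMIs only, and these UMIs come from 3 to 8 cells in each library. Ratios of both genes in the other myeloid cells are not given here, so neither difference is called particular to the cycling cells. Elane and Mpo, of granulocyte precursors, were at 0 in both. S-phase levels of the median cell were 336 and 566 CPM, against 376 and 356 CPM in the other myeloid cells, and G2/M levels 1008 and 1186 CPM against 1016 and 946 CPM. With Pclaf required as well, 0 of 1023 myeloid cells labelled WT met the rule, which allows a share of up to 0.293%, and 2 of 478 labelled Ring1aKO.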

How the data were processed

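Single cells were captured with the 10x Genomics 3′ v3 kit per the labels, or V3.1 per the study's methods, from sorted CD45+ cells, 1 library for each genotype from 5 pooled mice. The UMI counts were deposited by the authors as gene-by-barcode matrices, not normalized and not filtered for cells. The submitters' processing notes name Cell Ranger 6.0.2, Seurat and the build mm39, and the file header names Cell Ranger 4. The study's methods name mm10 and an older Cell Ranger version than either. Gene positions were therefore taken from GENCODE vM21 on GRCm38 for orientation only. Depth per library was 74414511 and 81862096 UMIs, and kept cells had medians of 6354 and 5035 UMIs.

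Barcodes with at least 1000 UMIs, 500 genes and under 5% mitochondrial UMIs were kept. For each class, UMI counts were added up and scaled to a total of 1000000 (CPM). Genes that reached 50 UMIs in the sum of the libraries were compared as log2 ratios with 1 UMI added, with exact intervals, and called at a fold of 2. Shares carry Clopper-Pearson intervals. With 1 library per genotype no test was made. Doublets were kept and no caller was run. Cells were thinned with seed 7. The 25 gene lists, the members and the rules were chosen with earlier results of these data known. Named genes were the rule genes, Ring1, members of the lists and, for each lineage with at least 30 members per library, the 8 highest and 8 lowest ratios among genes of at least 100 CPM in a library, immunoglobulin, T-cell-receptor variable and mitochondrial genes left out. Other named genes, the histones among them, were chosen after their values were seen. Promoters came from RefSeq on GRCm38.p6. Transcript length was matched for 99.6% of genes. Other limits on cells, the rule genes, the lineage rules, the pseudocount, the gene filter and thinning were tried as alternatives. The interval calculation was tested on simulated data. Python 3.11.15, numpy 2.4.6, scipy 1.17.1, pandas 2.3.3 and matplotlib 3.10.9 were used.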

Additional observations from a re-analysis of the deposited data

Results flagged for a closer look

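Barcodes with fewer than 100 UMIs, which were not kept as cells, held transcripts of both rule genes. Mki67 had 444 UMIs there in the library labelled WT, against 265 in the one labelled Ring1aKO, and Top2a had 335 and 216. Among barcodes removed for their mitochondrial share, 14 labelled WT and 13 labelled Ring1aKO met the Mki67 and Top2a rule. Ckb, a creatine kinase, had a log2 ratio of 1.79 in cycling T cells and -0.72 in cycling cells of the B rule, and this difference was not tested.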

How the results depend on the processing

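No paired analysis was possible because there was 1 library per genotype, both numbered replicate 1. Of 185 alternative values over 21 results, 168 moved by less than the counting error or kept within 1.5 times the count. The log2 ratio of the share of cycling cells was -0.73 with Pclaf required as well and -1.34 thinned to 2000 UMIs. Thinned to 2000 UMIs, the B share among cycling cells had a log2 ratio of 1.95, and the shares within lineages were -0.62 for B, -0.996 for T and -2.08 for dendritic cells. With at least 200 UMIs per gene, fewer genes were compared, and 47 were higher and 180 lower in all cycling cells and 42 and 98 in T cells. Before, the counts were 118 (1.22%) and 500 (5.16%) of 9693 genes, and 148 (2.43%) and 376 (6.17%) of 6097 in T cells. The counts come from different numbers of genes, so they do not show a change in the share of genes called. The following alternatives were chosen after seeing the data. Without B cells and plasmablasts the ratio of the share was -0.23, and with Pclaf and Birc5 it was -0.64, and -1.09 within B cells. With every rule met counted, cells of the myeloid rule had -0.24, against 1.10. Thinned as well, they had -0.55, cells of the T rule -1.23, of the dendritic rule -2.20, of the B rule -2.03 and of the plasmablast rule -0.64. As deposited, the dendritic rule then took in the 20 and 22 cycling cells of the B and dendritic rules. The cause of these differences was not tested. The B, dendritic and myeloid shares rest on fewer than 25 cycling cells in each library, and their intervals are wide.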

Other observations

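Cycling cells that met no lineage rule numbered 22 in the library labelled WT, against 10 in the one labelled Ring1aKO. Kit, the stem cell factor receptor, was found in 16 and 6 of them and Il7r, the interleukin-7 receptor, in 11 and 4. Cpa3, a mast cell protease, was found in 4 and 3, and Epcam, of epithelium, in 3 and 2. Mcpt1, a mucosal mast cell protease, was at 6296 and 13315 CPM in these cells.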
